A study of Mus musculus with 3 samples.

Results

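Fibroblast growth factors (FGFs) are secreted ligands that bind receptor tyrosine kinases on the cell surface. The 7 FGF genes described here were 5 ligands, Fgf2, Fgf7, Fgf10, Fgf18 and Fgf21, and the receptors Fgfr1 and Fgfr2, taken by gene symbol among the protein-coding entries of a table of 56748 genes. All 7 were measured in 3 RNA sequencing libraries, 1 per condition, made from fibroblasts of visceral adipose tissue, with wild-type, high-fat-fed mice as the source. They were the stromal vascular cells left after magnetic removal of cells bearing CD45, CD31 or Ter119. They were given recombinant mouse oncostatin M (Osm) at 3 ng/mL for 24 h, recombinant human TGF-beta1 at 3 ng/mL for 24 h, or vehicle, for which the labels state no time. The labels do not give the age or number of the mice or say whether they were pooled. Osm belongs to the interleukin 6 cytokine family, and TGF-beta1 is best known in fibroblasts for driving matrix production.

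Paracrine FGFs need heparan sulfate to form a complex with their receptor, whereas the endocrine FGF21 needs the co-receptor beta-Klotho. Bound receptors signal through the adaptor Frs2 and the ERK kinases, which switch on feedback genes of the Sprouty and dual-specificity phosphatase families. Fgfr1 and Fgfr2 each also make splice forms, IIIb and IIIc, that bind different ligands and that gene-level counts do not separate. In adipose tissue, FGF2 is known as a mitogen of stromal cells, FGF10 as a factor of preadipocytes and FGF21 as a hormone whose receptor complex is on adipocytes.

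The Osm, TGF-beta1 and vehicle libraries held 17319872, 18533741 and 18336068 counted reads. Levels are given as CPM, the count scaled to a common library size, which serve to compare a gene across libraries. Levels of different genes are compared as the authors' deposited FPKM, which also divides by gene length. With 1 library per condition no difference has a replicate check and none was tested. The values in brackets after a level or fold are exact 95% intervals, and these reflect counting error alone. A difference was called where the ratio of CPM was at least 2-fold and its interval excluded 1, and the 13712 genes that reached 1 CPM in any library were eligible, all 7 FGF genes among them. Fibroblast markers such as Pdgfra and Col1a1 were abundant in the Osm, TGF-beta1 and vehicle libraries, with 7 markers summing to 18472, 21195 and 18203 CPM. In these libraries, Col1a1 was at 4023, 8039 and 4285 CPM and Col1a2 at 4032, 5720 and 4302 CPM. Pdgfra was at 1122, 697.5 and 1129 CPM and Dcn at 1757, 823.9 and 1984 CPM. Col3a1, Lum and Thy1 were also lowest with TGF-beta1, so Col1a1 and Col1a2 alone carried its higher sum. The 5 adipocyte markers summed to 0.288, 0.0543 and 0.38 CPM in the same libraries, with Lep and Plin1 at 0 in all, and the 4 erythroid markers found were at 0 throughout. Summed levels were 15.9, 14.8 and 18.6 CPM for 8 leukocyte markers, 6.68, 3.47 and 8.15 CPM for 6 endothelial markers, 1.79, 2.28 and 2.66 CPM for 4 epithelial markers, 39.5, 48.0 and 40.4 CPM for 5 mesothelial markers and 30.1, 88.5 and 28.6 CPM for 6 mural markers. Of the mural sum, Cspg4 made up 7.38, 74.9 and 8.53 CPM, while Notch3 was at 15.5, 10.4 and 14.6 CPM and Abcc9 at 6.05, 1.74 and 4.29 CPM, so Cspg4 alone carried the higher sum with TGF-beta1. Wt1 made up 36.1, 43.4 and 37.1 CPM of the mesothelial sum with Osm, TGF-beta1 and vehicle. Msln, Upk3b, Lrrn4 and Krt19 were each at most 1.52 CPM in any library, so Wt1 alone carried that sum. The leukocyte genes Itgam and Cd3e and the endothelial gene Tie1 were at 0 in all 3 libraries. Other members of these lists were detected and made up most of the sums. With Osm, TGF-beta1 and vehicle, Csf1r was at 8.41, 10.2 and 8.48 CPM and Cd68 at 6.68, 3.69 and 8.91 CPM. The endothelial gene Vwf was at 4.84, 1.57 and 6.2 CPM, so Cd68 and Vwf were lowest with TGF-beta1. The part of these cells in the values below was not tested, and fewer cells of a type cannot be told apart from less RNA per cell.

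With TGF-beta1, Fgf21 stood 4.37-fold above vehicle, Fgf2 and Fgf18 about 1.5-fold above it, and Fgf7, Fgf10 and Fgfr1 1.30-fold to 1.48-fold below it. Fgfr2 was 2.67-fold lower. With Osm, none of the 7 genes differed 2-fold from vehicle. Of the 7 genes, 2 met the 2-fold rule for TGF-beta1 over vehicle, Fgf21 upward and Fgfr2 downward, where 7.06% of all tested genes met it, 2.27% upward and 4.79% downward. For Osm over vehicle 0 of 7 met it, where 1.6% of all tested genes did. The comparisons with vehicle share the vehicle library, and that of Osm with TGF-beta1 shares a library with each of them.

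**Figure D1:**
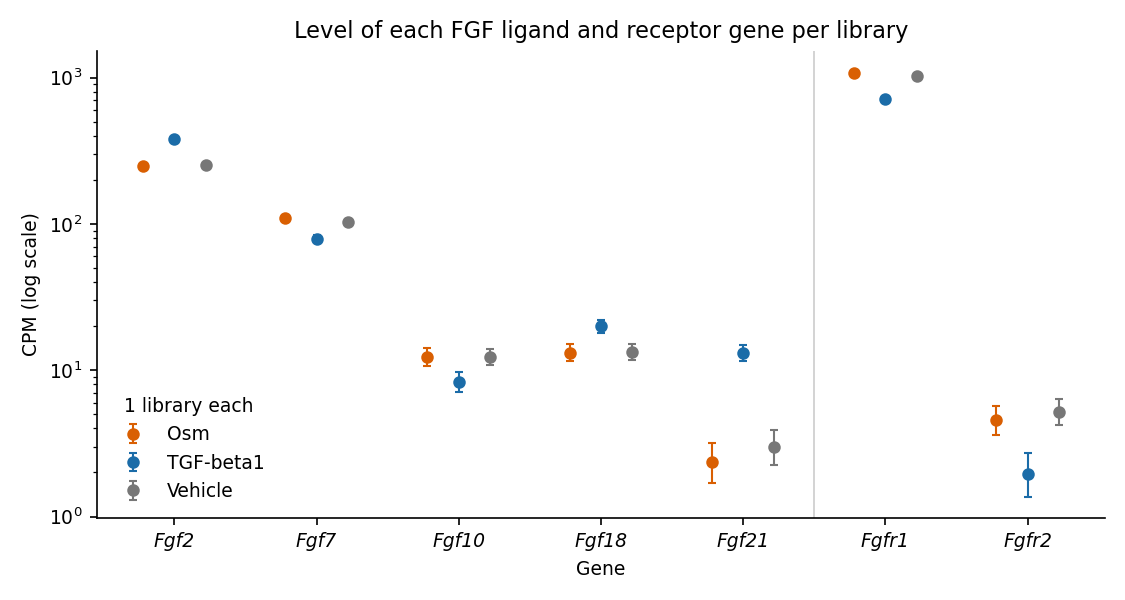
Level of each gene as CPM on a log scale in the Osm, TGF-beta1 and vehicle libraries, 1 library each, with ligands left of the line and receptors right of it. Bars are exact 95% Poisson intervals of the count. Fgf21 was at 13.1 CPM with TGF-beta1, above 2.36 CPM with Osm and 2.99 CPM with vehicle, and Fgfr2 was lowest with TGF-beta1.

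**Figure D2:**
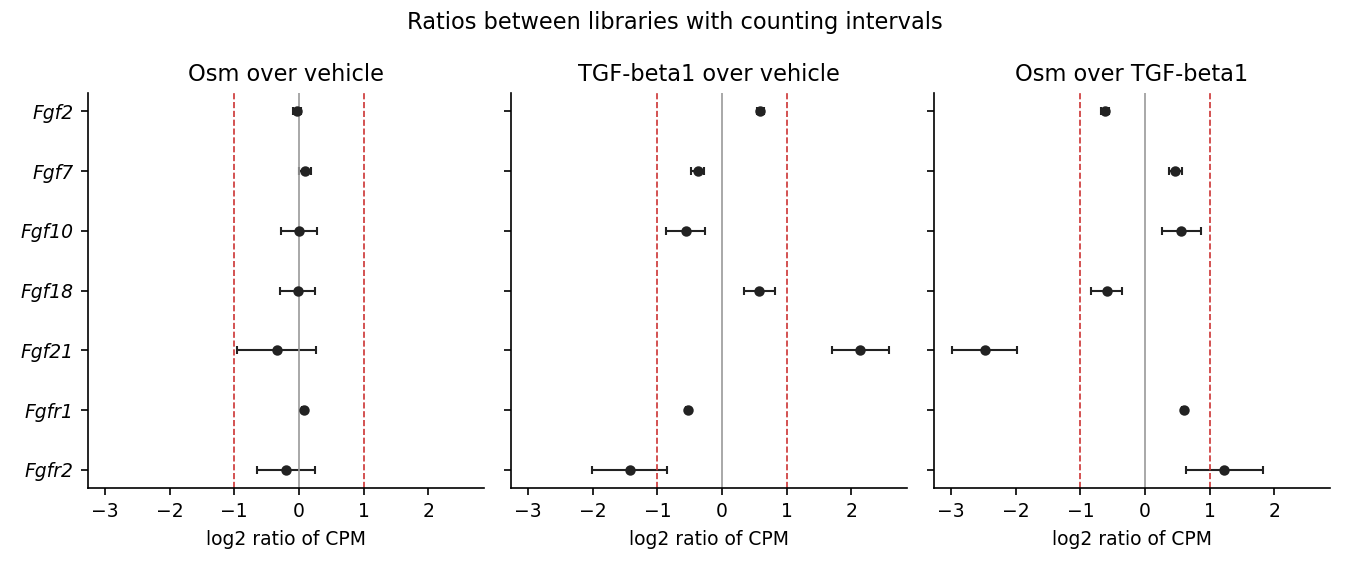
Log2 ratio of CPM of each gene in the 3 comparisons, computed without a prior count, with exact 95% intervals of the ratio of counts. Dashed lines mark a 2-fold difference. In the Osm over vehicle panel, 6 of the 7 intervals include 0, while none of the TGF-beta1 over vehicle intervals does.

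Among the ligands, Fgf2 encodes basic FGF, a heparin-binding mitogen exported without a signal peptide (ENSMUSG00000037225, build mm39, chromosome 3, 37402495 to 37464257, plus strand). It was at 249 CPM in the Osm library, 383 CPM in the TGF-beta1 library and 254 CPM in the vehicle library. Only the TGF-beta1 library stood apart, 1.51-fold above vehicle (1.45 to 1.57). The Osm library was 1.02-fold below vehicle (0.977 to 1.06), within counting error. Among all tested genes, 7.1% had a ratio of TGF-beta1 over vehicle at least as high as that of Fgf2. Fgf2 overlaps 4 annotated genes, and the most abundant of them, Nudt6 on the opposite strand, was at 8.76, 6.84 and 6.96 CPM in the Osm, TGF-beta1 and vehicle libraries.

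Fgf18, a paracrine ligand known for its part in bone and cartilage growth (chromosome 11, 33067430 to 33097400, minus strand), had a similar pattern at a lower level. Its level was 13.2 CPM with Osm, 19.9 CPM with TGF-beta1 and 13.4 CPM with vehicle. TGF-beta1 over vehicle was 1.49-fold (1.26 to 1.76), while Osm was 1.01-fold below vehicle (0.843 to 1.22). The ratio of Fgf2 to Fgf18 does not depend on how libraries are scaled. Per length it was 3.31 with Osm (2.89 to 3.79), 3.37 with TGF-beta1 (3.03 to 3.75) and 3.32 with vehicle (2.92 to 3.79). These ratios lay within each other's counting intervals. The gene pairs for such ratios were chosen after their values had been seen.

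Fgf7 and Fgf10 encode mesenchymal ligands of the same subfamily, which signal to the IIIb form of FGFR2 on neighbouring cells. Fgf7, keratinocyte growth factor (chromosome 2, 125876578 to 125933105, plus strand), was at 109.9 CPM with Osm, 79.4 CPM with TGF-beta1 and 103 CPM with vehicle. It was lowest with TGF-beta1, 1.30-fold below vehicle (1.21 to 1.39). Fgf10 (chromosome 13, 118806327 to 118928651, plus strand) was at 12.3 CPM with Osm, 8.36 CPM with TGF-beta1 and 12.3 CPM with vehicle. It too was lowest with TGF-beta1, 1.48-fold below vehicle (1.2 to 1.82), and neither gene met the 2-fold rule. With Osm, Fgf7 was 1.07-fold above vehicle (0.999 to 1.14), and the Fgf10 interval of Osm over vehicle ran from 0.825 to 1.21. Per length, Fgf7 exceeded Fgf10 by 12.6-fold with Osm (11.0 to 14.6), 13.5-fold with TGF-beta1 (11.4 to 16) and 11.9-fold with vehicle (10.3 to 13.7), so the ratio of the pair differed by less than the counting error.

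Fgf21 encodes the endocrine ligand known mainly as a hormone of the fasted liver (ENSMUSG00000030827, chromosome 7, 45263310 to 45264914, minus strand). It had 41 reads with Osm, 241 with TGF-beta1 and 55 with vehicle, or 2.36, 13.1 and 2.99 CPM. The TGF-beta1 interval, 11.5 to 14.8 CPM, overlapped neither the Osm interval of 1.7 to 3.21 CPM nor the vehicle interval of 2.25 to 3.89 CPM. TGF-beta1 over vehicle was 4.37-fold (3.25 to 5.98), the 46th highest ratio of the 13712 tested genes. Osm was 1.27-fold below vehicle (0.829 to 1.94), a difference not detectable at this depth. The gene overlaps no other annotated gene, and none of its 50-base transcript windows occurs in a transcript of another gene. Klb, which encodes beta-Klotho, had 1 read in all, in the TGF-beta1 library, and Kl, the related Klotho gene, had none. A count of 0 (floor of 3 counts) allows a level of up to 0.173 CPM in the Osm library and 0.163 CPM in each of the others.

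Promoter windows of 250 bases before to 50 after the RefSeq start (build GRCm38.p6) were at hand for 6 of the 7 genes, all except Fgfr1. Those of Fgf21 and Fgfr2 are shown because these genes met the 2-fold rule with TGF-beta1. Capitals mark matches, on either strand, to CAGAC, the short Smad motif, or to TGATGNAA, the core of the element bound by ATF4 with C/EBP factors, which was added to the search after the Fgf21 values had been seen. The Fgf21 window is chr7:45615441-45615740 on the minus strand and the Fgfr2 window chr7:130266759-130267058 on the minus strand.
Fgf21: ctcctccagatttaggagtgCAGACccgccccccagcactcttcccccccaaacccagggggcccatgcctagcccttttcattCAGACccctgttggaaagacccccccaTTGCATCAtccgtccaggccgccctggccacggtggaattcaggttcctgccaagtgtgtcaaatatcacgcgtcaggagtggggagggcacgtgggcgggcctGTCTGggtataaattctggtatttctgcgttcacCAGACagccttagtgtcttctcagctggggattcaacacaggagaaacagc
Fgfr2: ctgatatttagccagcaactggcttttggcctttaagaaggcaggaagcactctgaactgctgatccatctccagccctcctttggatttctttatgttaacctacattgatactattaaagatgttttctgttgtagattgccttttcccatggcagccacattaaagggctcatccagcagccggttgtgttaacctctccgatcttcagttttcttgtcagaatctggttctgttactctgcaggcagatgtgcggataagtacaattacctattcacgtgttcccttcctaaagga
The Fgf21 window held 4 CAGAC matches, and 0.907% of all 32851 windows held at least 4, while 49.6% held at least 1. The cut of 4 is the count in the Fgf21 window itself, the highest of the 6, so the 0.907% is a description and enrichment was not tested. The Fgf21 window also held 1 match to TGATGNAA, at bases 112 to 119 on the strand opposite to the gene, and 3.97% of windows held that motif. The Fgfr2 window held neither. No match to GTCTAGAC (Smad palindrome, in 0.213% of windows), TGACTCA (AP-1, 5.2%) or TTCNNNGAA (Stat, 8.3%) was found in any of the 6 windows. Of the other windows, that of Fgf18 held 2 CAGAC matches, those of Fgf2 and Fgf7 held 1 each and that of Fgf10 held none. These matches describe the letters in the window and were not tested for binding.

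Of the receptors, Fgfr1 was by far the more abundant (ENSMUSG00000031565, chromosome 8, 26003670 to 26065734, plus strand). It is the main FGF receptor of mesenchymal cells. It was at 1077 CPM with Osm, 708 CPM with TGF-beta1 and 1020 CPM with vehicle. The TGF-beta1 library was the lowest, 1.44-fold below vehicle (1.41 to 1.47), and 12.9% of tested genes had a ratio at least as low. Osm over vehicle was 1.06-fold (1.03 to 1.08). That interval excluded 1 at this depth of 18683 and 18775 reads, but 31.8% of tested genes had a ratio of Osm over vehicle at least as high.

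Fgfr2 (ENSMUSG00000030849, chromosome 7, minus strand) encodes the receptor whose IIIb form binds FGF7 and FGF10 in epithelia. It had 79 reads with Osm, 36 with TGF-beta1 and 96 with vehicle, or 4.55, 1.95 and 5.22 CPM. The TGF-beta1 interval, 1.37 to 2.7 CPM, lay below the intervals of Osm (3.6 to 5.67 CPM) and vehicle (4.23 to 6.37 CPM), which overlapped each other. TGF-beta1 was 2.67-fold below vehicle (1.80 to 4.03), the 327th lowest ratio of the tested genes, and Osm 1.15-fold below it (0.842 to 1.56). The 4 epithelial markers summed to 2.28 CPM with TGF-beta1 and 2.66 CPM with vehicle, and Epcam and Cdh1 had at most 7 reads in any library. Krt8 had 17, 25 and 30 reads with Osm, TGF-beta1 and vehicle, and Krt18 had 9, 10 and 6 reads. The deposited table places Fgfr2 at 129764181 to 132725079, a span of 2.96 megabases. GENCODE M21 gives a similar span of 2960900 bases, while RefSeq of the earlier build GRCm38 gives 104 kilobases. The deposited span overlaps 71 other annotated genes, 36 of them on the same strand, including Oat at 235.5 to 290 CPM. Whether counting used strand is not stated by the labels, so the Fgfr2 values are uncertain.

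Both genes that met the 2-fold rule were low in expression, with mean levels of 6.14 CPM for Fgf21 and 3.91 CPM for Fgfr2. Among tested genes with a mean under 10 CPM, 15% met the rule for TGF-beta1 over vehicle, compared with 2.98% of those at 10 CPM or more, where 0 of 5 FGF genes met it. In the direct comparison of Osm with TGF-beta1, 2 of 7 FGF genes met the rule, where 7.49% of all tested genes did, 5.07% upward and 2.42% downward. Fgf21 was 5.53-fold lower with Osm than with TGF-beta1 (3.96 to 7.91), and Fgfr2 was 2.33-fold higher (1.55 to 3.56). Fgf2 was 1.54-fold lower (1.48 to 1.60), Fgf18 1.51-fold lower (1.28 to 1.79) and Fgfr1 1.52-fold higher (1.49 to 1.55). Fgf7 was 1.38-fold higher (1.29 to 1.48) and Fgf10 1.48-fold higher (1.19 to 1.83). With a threshold of 1.5-fold, 0 of 7 FGF genes passed for Osm over vehicle, 3 for TGF-beta1 over vehicle and 5 for Osm over TGF-beta1, where 3.76%, 15.5% and 16.1% of all tested genes did. The median log2 ratio of the 7 genes was -0.019 for Osm over vehicle and -0.38 for TGF-beta1 over vehicle, where the medians over all tested genes were 0.0021 and 0.013. With TGF-beta1 over vehicle, 3 of the 7 lay above 0 and 4 below, from -1.405 to 2.119, so that median does not describe a common shift.

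**Figure D3:**
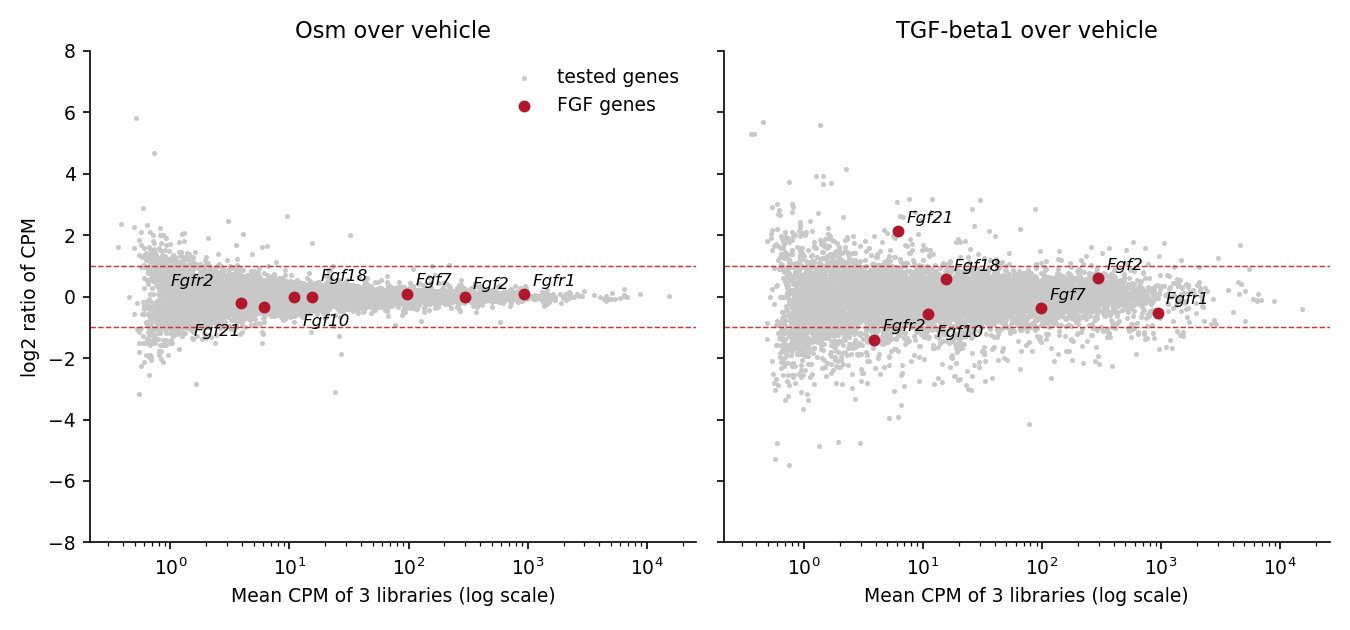
Log2 ratio of CPM (prior count 0.5) against mean CPM of the 3 libraries on a log scale for all 13712 tested genes (grey) and the 7 FGF genes (red), for Osm over vehicle and TGF-beta1 over vehicle. Dashed lines mark a 2-fold difference. Fgf21, at a log2 ratio of 2.12, and Fgfr2, at -1.41, lie outside the dashed lines with TGF-beta1, and no FGF gene does with Osm.

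Ligand levels within a library were compared per length. With Osm the levels were Fgf2 at 36.6 FPKM, Fgf7 at 33.7, Fgf18 at 11.1, Fgf10 at 2.67 and Fgf21 at 2.48 FPKM. With TGF-beta1 they were Fgf2 at 56.6 FPKM, Fgf7 at 24.5, Fgf18 at 16.8, Fgf21 at 13.8 and Fgf10 at 1.82 FPKM. With vehicle they were Fgf2 at 37.4 FPKM, Fgf7 at 31.8, Fgf18 at 11.3, Fgf21 at 3.15 and Fgf10 at 2.68 FPKM. In all 3 libraries the order was Fgf2, Fgf7, Fgf18, with Fgf10 and Fgf21 below them. Fgf10 and Fgf21 could not be ordered by counting error with Osm (1.08-fold, 0.77 to 1.55) or vehicle (Fgf21 1.17-fold above Fgf10, 0.857 to 1.58), but with TGF-beta1 Fgf21 was 7.57-fold above Fgf10 (6.16 to 9.33). Fgf2 exceeded Fgf7 by 1.09-fold with Osm (1.03 to 1.15), 2.31-fold with TGF-beta1 (2.18 to 2.44) and 1.18-fold with vehicle (1.12 to 1.24), so the ratio of Fgf2 to Fgf7 was 1.96-fold higher with TGF-beta1 than with vehicle (1.81 to 2.12). Fgfr1 was at 108.6, 71.9 and 103.4 FPKM with Osm, TGF-beta1 and vehicle, and Fgfr2 at 0.439, 0.19 and 0.505 FPKM, a difference of at least 2 orders of magnitude in each library.

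**Figure D4:**
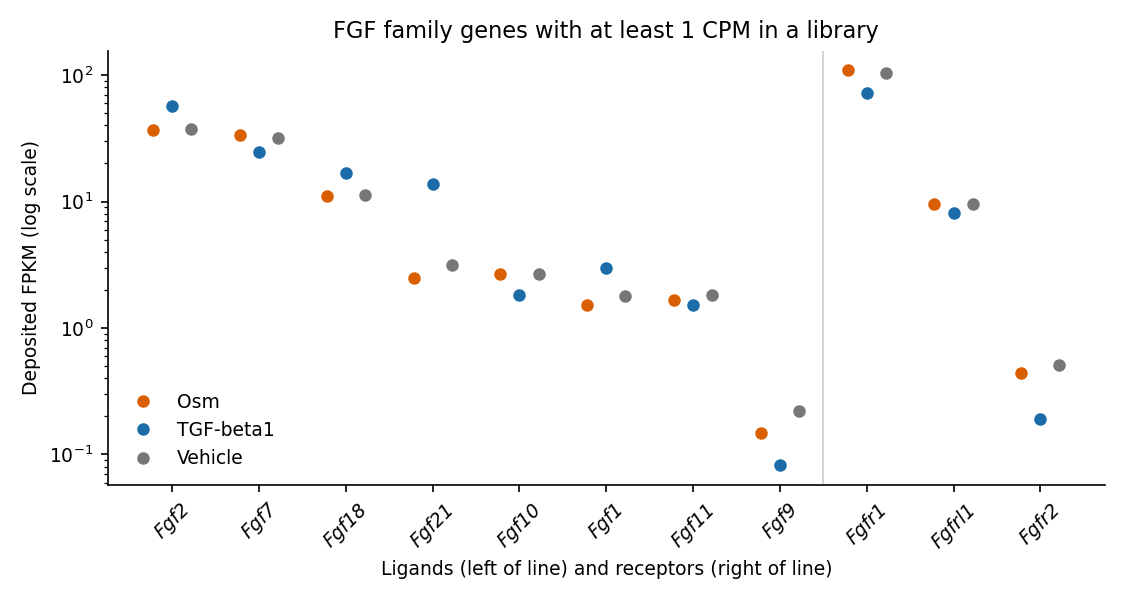
Deposited FPKM on a log scale of the 8 ligand and 3 receptor genes of the FGF family with at least 1 CPM in a library, in the Osm, TGF-beta1 and vehicle libraries. Fgf11, which is not secreted, is counted with the ligands. Fgf2 and Fgfr1 were the highest ligand and receptor in each library, and Fgf21 with TGF-beta1, at 13.8 FPKM, came close to Fgf18.

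Across the whole family, 8 of 22 ligand genes and 3 of 5 receptor genes reached 1 CPM in a library, and 6 ligand genes had no read in any. The other genes of the ligand list that reached 1 CPM were Fgf1, Fgf11 and Fgf9. Fgf1, acidic FGF, was at 8.36, 16.3 and 9.78 CPM with Osm, TGF-beta1 and vehicle, 1.67-fold higher with TGF-beta1 than with vehicle (1.38 to 2.02). Fgf11, an intracellular homologue that is not secreted, is counted here with the ligands and was at 5.07, 4.61 and 5.54 CPM. Fgf9 had 12, 7 and 19 reads in these libraries and met the 2-fold rule downward with TGF-beta1 (2.72-fold lower, 1.09 to 7.65). It was eligible only through the vehicle library, at 1.03 CPM, so its call is given as a description. Fgfrl1, a receptor-like protein without a kinase domain, was at 26.9, 22.4 and 26.7 CPM. Fgfr3 had at most 12 reads in any library and Fgfr4 at most 2. With TGF-beta1 over vehicle, 1 of the 8 ligand genes, Fgf21, was higher past the rule, and 1 of the 3 receptor genes, Fgfr2, was lower. Among all tested genes 7.06% passed it, and 15% of those with a mean under 10 CPM, as both called genes had. The 1 ligand gene called lower, Fgf9, is not read against these shares, because it was eligible only through the library where it was highest.

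Of the 14 measured co-receptor and binding protein genes, 1 was higher and 1 lower past the 2-fold rule with TGF-beta1 over vehicle, where 2.27% of all tested genes were higher and 4.79% lower. Ncam1, an adhesion molecule that can bind FGF receptors, was at 29.0 CPM with Osm, 204 CPM with TGF-beta1 and 28.4 CPM with vehicle, 7.19-fold higher with TGF-beta1 than with vehicle (6.56 to 7.90). Sdc4, a heparan sulfate proteoglycan of the cell surface, was at 124, 49.2 and 100.4 CPM in the same order, 2.04-fold lower (1.88 to 2.21). The most abundant per length were Hspg2, which encodes perlecan, at 130, 170 and 123 FPKM with Osm, TGF-beta1 and vehicle, and Sdc2 at 129, 116 and 137.5 FPKM. Fgfbp1, which encodes an FGF carrier protein, had no read in any library. Of 11 heparan sulfate modification genes, 2 were higher and none lower past the rule, where 2.27% of all tested genes were higher and 4.79% lower. Sulf1, an extracellular 6-O-endosulfatase of heparan sulfate, was at 678 CPM with Osm, 1120 CPM with TGF-beta1 and 536 CPM with vehicle, 2.09-fold higher with TGF-beta1 (2.04 to 2.14). Its paralogue Sulf2 was at 126, 84.1 and 146 CPM, 1.73-fold lower with TGF-beta1 (1.63 to 1.84) and named after its values had been seen. Sulf2 overlaps Ncoa3, which was at 86.8, 80.7 and 81.6 CPM on the opposite strand. Hs6st2, a 6-O-sulfotransferase that adds the group the sulfatases remove, was at 26.5, 57.6 and 25.2 CPM, 2.28-fold higher with TGF-beta1 (2.05 to 2.55). Per length, Sulf1 was the most abundant of the list, at 59.8, 99.4 and 47.5 FPKM with Osm, TGF-beta1 and vehicle, followed by Ext1, a polymerase of the heparan sulfate chain, at 27.4, 27.7 and 24.5 FPKM. With Osm over vehicle, none of these 25 genes met the rule, where 1.6% of all tested genes did.

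Inside the cell, none of the 20 adaptor and transducer genes met the 2-fold rule in any of the 3 comparisons, where 1.6% of all tested genes did with Osm and 7.06% with TGF-beta1 over vehicle, and 7.49% between both treatments. Among tested genes with a mean of 10 CPM or more, 2.98% met it for TGF-beta1 over vehicle, so a count of 0 is near the background. Their log2 ratios of TGF-beta1 over vehicle ran from -0.44 to 0.42. Mapk3 and Shc1 were the most abundant per length, at 74.8, 56.9 and 77.0 FPKM and at 58.6, 49.8 and 58.4 FPKM with Osm, TGF-beta1 and vehicle. Of the 20 target and feedback genes, 1 was higher and 1 lower past the rule with TGF-beta1 over vehicle, near the 7.06% of all tested genes that passed it in either direction, and their median log2 ratio was 0.17, where that of all tested genes was 0.013. Etv4, an ETS transcription factor downstream of ERK, was at 8.18, 13.3 and 6.58 CPM with Osm, TGF-beta1 and vehicle, 2.02-fold higher with TGF-beta1 (1.62 to 2.53). Etv1, a related factor, was at 13.7, 7.0 and 14.8 CPM, 2.11-fold lower (1.71 to 2.63), and 9.05% of its 50-base transcript windows also occur in transcripts of other genes. The most abundant targets per length were Dusp4, at 45.4, 56.5 and 46.1 FPKM, and Ier3, at 42.5, 44.6 and 36.2 FPKM. In the direct comparison, 1 of the 20 met the rule, downward, where 2.42% of all tested genes did. This was Dusp5, an ERK phosphatase, 2.21-fold lower with Osm than with TGF-beta1 (1.76 to 2.80). Dusp5 was at 6.11, 13.5 and 8.86 CPM with Osm, TGF-beta1 and vehicle. From the other lists, besides Fgf21 and Fgfr2, Ncam1, Hs6st2 and Esrp2 (described below) were lower past the rule in the direct comparison, and Sdc4 was higher.

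Of 3 measured regulators of FGF receptor splicing, Esrp2, which favours the epithelial IIIb forms, met the rule upward with TGF-beta1, where 2.27% of all tested genes did. In either direction, 15% of tested genes with a mean under 10 CPM, as Esrp2 had, met it. Esrp2 had 19 reads with Osm, 80 with TGF-beta1 and 22 with vehicle, 3.63-fold higher with TGF-beta1 than with vehicle (2.24 to 6.11), at a level of 4.34 CPM. Nfatc3, which overlaps Esrp2 on the opposite strand, was at 92.1, 97.1 and 88.5 CPM with Osm, TGF-beta1 and vehicle, so the Esrp2 values are uncertain. Esrp1, the paralogue of Esrp2, had at most 2 reads in any library. Ptbp1 and Rbfox2 were at 304, 315 and 293 CPM and at 199.8, 202.5 and 197.1 CPM. The abundance of these 2 genes differed by less than 1.2-fold between any 2 libraries.

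**Figure D5:**
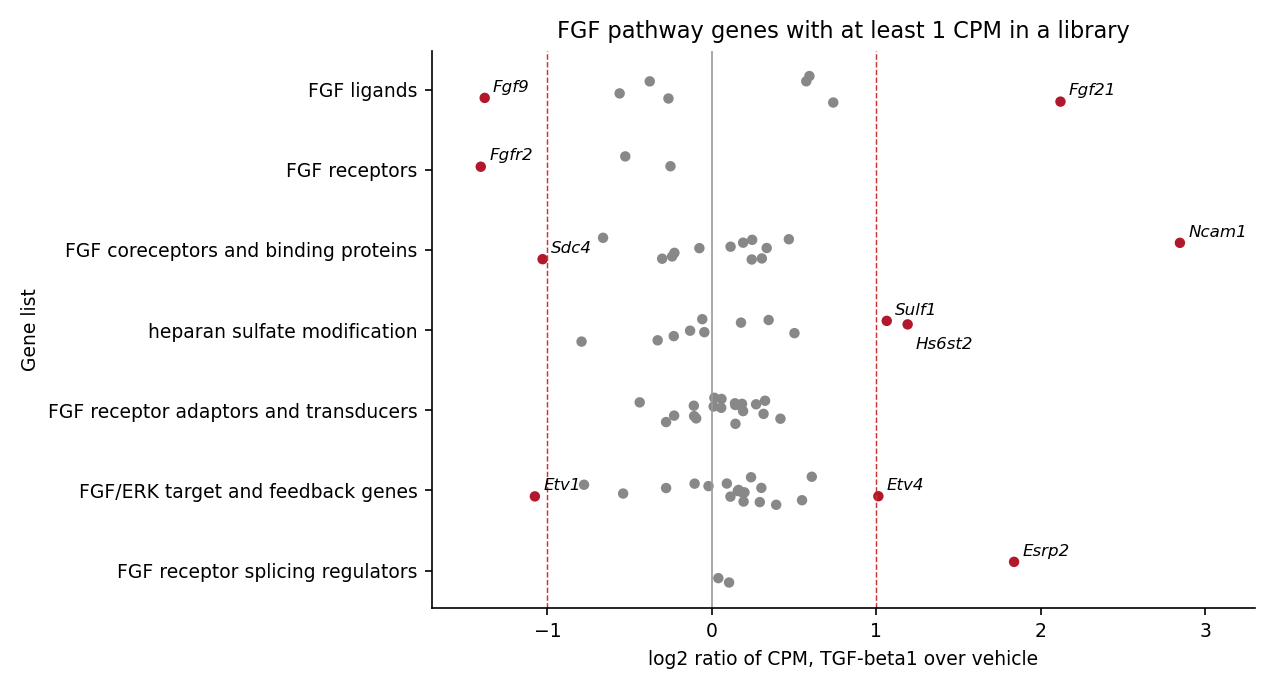
Log2 ratio of CPM, TGF-beta1 over vehicle, of each gene with at least 1 CPM in a library in 7 lists of FGF pathway genes. Red named points met the 2-fold rule (dashed lines), and vertical scatter within a list has no meaning. Ncam1, Fgf21 and Esrp2 lie farthest above 0 and Fgfr2 and Fgf9 farthest below.

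The genes most like Fgf21 and Fgfr2 in their ratios of Osm and TGF-beta1 over vehicle were looked up among protein-coding genes that reached 10 CPM in any library, by the Euclidean distance in the 2 log2 ratios, which rests on 3 libraries. For Fgf21, with log2 ratios of -0.34 and 2.12, they were Mfap4 (distance 0.162), Nes (0.17) and Pi16 (0.202), and 2 of 9114 genes lay within 0.2. For Fgfr2, with log2 ratios of -0.20 and -1.41, they were Syngr1 (0.033), Ndufa4l2 (0.044) and Prelp (0.061), and 31 of 9115 genes lay within 0.2. This likeness is a description of 3 libraries.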

How the data were processed

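RNA sequencing was done on 1 library per condition, grouped by the sample titles. The authors deposited whole-number read counts by Ensembl gene and, separately, FPKM values. Build mm39 and the tools TopHat2, HISAT2, HISAT and CASAVA are named in the submitters' processing notes, without roles. The counter and strand setting were, in the sources used here, not given. The deposited FPKM values equal counts divided by gene length and by a library size based on DESeq2 size factors. Per the labels' protocols, RNA was selected with oligo-dT, and no molecular identifiers are described, so intervals and the floor of 3 counts for a count of 0 cover counting error only.

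Counts were scaled to CPM with TMM factors (edgeR 4.0.16, R 4.3.3). Log2 ratios used a prior count of 0.5, folds are plain ratios of CPM, and their exact 95% intervals are conditional binomial (Clopper-Pearson). No p-values were computed. The calculation was checked on simulated Poisson counts, which hold counting error but no variation between libraries. Alternatives were DESeq2 1.42.0 size factors, count totals, FPKM ratios, a prior count of 2, other filters and a 1.5-fold rule. The rest used Python 3.11.15 (matplotlib 3.10.9, pandas 2.3.3, scipy 1.17.1, numpy 2.4.6). Promoter windows are from RefSeq (GRCm38.p6), and transcript windows of 50 bases are from GENCODE M21. All 7 genes were described, and from each of 7 pathway lists the genes past the 2-fold rule and the 2 most abundant per length, with every FGF ligand or receptor at 1 CPM or more and genes with no read where a list held 5 or fewer. Sulf2, and Klb, Fgfr3, Fgfr4 and Esrp1 as low genes, were added after their values were seen. Of 148 listed symbols 147 were found. The genes and lists were chosen with earlier results of these data known.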

Additional observations from a re-analysis of the deposited data

How the results depend on the processing

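With DESeq2 size factors, count totals, a prior count of 2 or ratios of the deposited FPKM, the 84 recomputed log2 ratios of the 7 FGF genes kept their sign and their place within the counting interval, with a largest shift of 0.041. The deposited FPKM rest on DESeq2 size factors, so their ratios nearly repeat that alternative by construction and are no separate check. The count of FGF genes past the rule for Osm over TGF-beta1 was 5 under a 1.5-fold rule, in place of 2. For TGF-beta1 over vehicle it was 3, with Fgf2 added, and for Osm over vehicle 0. These 1.5-fold counts hold for TMM scaling, and 2 members lay close to that threshold. The log2 ratio of Fgf2 for TGF-beta1 over vehicle was 0.593 with TMM but 0.58 with count totals, just short of 1.5-fold. That of Fgf18 for Osm over TGF-beta1 was -0.592 with TMM and -0.582 with count totals, also just short. The count of all tested genes past the rule depended more on the filter. For Osm over vehicle it was 219, 468 with no filter, 23 at 5 CPM or more and 516 at 1.5-fold. For TGF-beta1 over vehicle it was 968, 430 at 5 CPM or more and 2131 at 1.5-fold. For Osm over TGF-beta1 it was 1027, 451 at 5 CPM or more and 2206 at 1.5-fold. The stricter filter leaves fewer genes by construction. No paired analysis was possible because each condition has 1 library, and for the same reason no library could be left out. At this depth a difference in Fgf21 or Fgfr2 of the size seen with Osm could not be told from counting error.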

Other observations

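Fgf2 has an annotated antisense transcript gene, Fgf2os, across its start, whose values were looked at after the others. Fgf2os had 27 reads with Osm, 37 with TGF-beta1 and 15 with vehicle, or 1.56, 2.01 and 0.815 CPM. It was 2.46-fold higher with TGF-beta1 than with vehicle (1.32 to 4.83), and it was eligible only through the Osm and TGF-beta1 libraries, so this is a description. The interval of Osm over vehicle included 1 (0.98 to 3.86). Nudt6, which overlaps the end of Fgf2 on the opposite strand, was 1.02-fold lower with TGF-beta1 than with vehicle, with an interval of the ratio from 0.762 to 1.27. Since the labels do not state whether counting used strand, Fgf2os reads that lie within Fgf2 cannot be told apart from reads of Fgf2.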
